A study of Mus musculus with 3 samples.

Results

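The 9 genes described here encode proteins that sense extracellular nucleotides or turn them into adenosine, and they were chosen by symbol from the 31053 genes of the mouse count tables. They comprise the P2Y receptors *P2ry12*, *P2ry13* and *P2ry6*, the ATP-gated channels *P2rx4* and *P2rx7*, the ectonucleotidases *Entpd1* (CD39) and *Nt5e* (CD73), and the adenosine receptors *Adora2a* and *Adora3*. Single-cell RNA libraries had been made from brain tissue around an intracranial glioma in female wild-type C57BL/6 mice of 6 to 8 weeks. All animals carried the tumor, which was seeded in the right striatum with BT0309 brain tumor initiating cells, which carry luciferase and GFP and came from C57BL/6J animals of the NPcis genotype (Nf1+/-;Trp53+/-). The vehicle control group (1 library, replicate 2) was given saline, and the niacin group (2 libraries, replicates 1 and 2) was given 100 mg/kg niacin intraperitoneally each day from day 7, with tissue taken at 4 weeks. Each library was a pool of several brains from which live cells were sorted, so variation between animals was not measured and the 1 control library allowed no test of niacin. The libraries held 2145 to 2532 barcodes and 8301228 to 10359526 unique molecular identifiers (UMIs, each standing for 1 captured RNA molecule).

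Microglia, the resident macrophages of the brain, survey tissue with motile processes, and ADP released by injured cells draws those processes in through P2Y12. ATP opens P2X4 and P2X7 channels, UDP acts on P2Y6, CD39 degrades ATP and ADP to AMP, CD73 converts AMP to adenosine, and adenosine acts on the receptors encoded by *Adora2a* and *Adora3*. The pathway is known in gliomas for the adenosine arm, which restrains T cells.

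Cells were sorted into classes by distinct lineage markers with a UMI, and no marker list contained any of the 9 genes. Of 5528 cells that passed the filters, 2796 were microglia-like, 568 monocyte- or macrophage-like (written monocyte/macrophage-like), 526 T cell-like, 464 choroid plexus-like, 258 neutrophil-like and 107 B cell-like; 514 stayed unassigned. The 3 libraries shared barcodes: 924 distinct barcodes occurred in more than 1 library and 452 in all 3, with a median of 11182 UMIs in the deepest copy and 606 in the shallowest. Values are therefore given with all cells, and calls that were lost without the shared barcodes are named beside the results. Shallower copies made up 1.12% to 3.59% of the UMIs of microglia-like cells, but 0.55% of those of monocyte/macrophage-like cells in the vehicle control library against 10.3% and 8.90% in the niacin libraries.

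In the GRCm38 annotation (GENCODE M21), *P2ry13* (chromosome 3, 59207892 to 59210882) and *P2ry12* (59216272 to 59262871) lay 5389 bases apart on the minus strand, both inside *Med12l* on the opposite strand. *Med12l* itself was counted at 86.9, 121 and 120 CPM (UMIs per 1000000 UMIs of the class) in the microglia-like cells of the vehicle control, niacin replicate 1 and niacin replicate 2 libraries, an order kept below, and at 13.7, 0 and 0 CPM in monocyte/macrophage-like cells. The 10x 3′ chemistry keeps the strand of a transcript, and the strand setting used in counting is not given in the sources used here. *P2rx7* (chromosome 5, 122643911 to 122691432) and *P2rx4* (122707544 to 122729738) were also neighbors, 16111 bases apart on the plus strand. The others lay at chromosome 7, 100937630 to 100974649 (*P2ry6*, minus strand), chromosome 19, 40612366 to 40741602 (*Entpd1*, plus), chromosome 9, 88327197 to 88372092 (*Nt5e*, plus), chromosome 10, 75316877 to 75334784 (*Adora2a*, plus) and chromosome 3, 105870858 to 105908926 (*Adora3*, plus). *Adora3* overlapped *Tmigd3* on its own strand, and *Tmigd3* held 2, 9 and 13 UMIs in the microglia-like cells of the 3 libraries. *Entpd1* overlapped *Gm16027*, *Gm8783* and *AC166063.1*, and *P2rx7* overlapped *Mir8115*, on their own strand. *P2ry6* overlapped *Gm44545* on the opposite strand.

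The upstream windows of the neighboring ADP receptor genes are shown because both genes were highest in the same class. Each is the 250 bases before the RefSeq transcript start (GRCm38.p6), read 5′ to 3′ on the minus strand, at chr3:59262986-59263235 for *P2ry12* and chr3:59210883-59211132 for *P2ry13*. Capitals mark GAGGAA, a core of the sites bound by the myeloid factor PU.1, searched on both strands.
P2ry12: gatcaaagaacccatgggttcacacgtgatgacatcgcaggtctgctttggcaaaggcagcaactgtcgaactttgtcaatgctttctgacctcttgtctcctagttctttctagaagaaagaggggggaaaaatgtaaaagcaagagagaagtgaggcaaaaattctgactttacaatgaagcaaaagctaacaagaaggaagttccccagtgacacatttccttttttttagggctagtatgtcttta
P2ry13: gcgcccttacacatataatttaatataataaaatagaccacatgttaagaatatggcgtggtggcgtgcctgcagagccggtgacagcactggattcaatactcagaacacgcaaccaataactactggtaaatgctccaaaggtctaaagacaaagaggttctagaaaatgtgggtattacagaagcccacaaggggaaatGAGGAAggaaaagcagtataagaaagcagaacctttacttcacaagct
The *P2ry13* window held 1 match, which began 48 bases before the start, and the *P2ry12* window held none. Of all 32851 windows of this length, 23.3% held the motif, so its presence or absence here is a description only. Both windows were 41.6% G and C, against a median of 52.4% over all windows.

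*P2ry12*, whose product is the ADP receptor that marks resident microglia, reached 1770.5, 2261 and 2342 CPM in microglia-like cells. The mean was 2124 ± 309 CPM (SD, n = 3 libraries). In the other 5 classes it averaged 10.1 to 25.2 CPM, and neighboring classes in that order overlapped between libraries. Its level in monocyte/macrophage-like cells (28.9, 23.4 and 11.3 CPM) overlapped that in T cell-like (17.2, 16.6 and 22.3 CPM) and B cell-like cells (11.3, 25.0 and 17.2 CPM), lymphocytes that served as the background. It was above both in the vehicle control library and below both in niacin replicate 2, so it could not be told apart from that background over the 3 libraries.

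*P2ry13*, a second ADP receptor, stood at 413, 609 and 600.1 CPM in microglia-like cells, 541 ± 111 on average. Neutrophil-like cells were next, at 130.5, 21.9 and 28.1 CPM, and monocyte/macrophage-like cells had 41.2, 11.7 and 2.83 CPM. The vehicle control library was the highest in both of those classes and the lowest in microglia-like cells. *P2ry6*, the UDP receptor linked to phagocytosis, was found at 287, 343 and 296 CPM in microglia-like and 92.8, 75.3 and 69.3 CPM in monocyte/macrophage-like cells. These classes were the highest and the next, without overlap between libraries, and 0 of the 107 B cell-like cells held a *P2ry6* UMI.

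*P2rx4* gave 163, 147 and 128 CPM in microglia-like cells and 183, 41.8 and 62.2 CPM in monocyte/macrophage-like cells, so the 2 classes overlapped. B cell-like cells followed at 63.3 ± 24.4 CPM and T cell-like cells at 32.3 ± 11.6 CPM. *P2rx7*, the channel known for inflammasome activation, was at 147, 127 and 126 CPM in microglia-like, 53.5, 77.0 and 75.3 CPM in T cell-like and 24.1, 8.36 and 19.8 CPM in monocyte/macrophage-like cells. Those 3 classes did not overlap for *P2rx7*, and the other 3 of the 6 tested classes averaged at most 2.68 CPM.

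*Entpd1* was present at 390.2, 539 and 524 CPM in microglia-like cells, the highest class without overlap. Neutrophil-like cells had 295, 62.1 and 66.1 CPM and monocyte/macrophage-like cells 147, 53.5 and 45.3 CPM, and these overlapped. *Nt5e*, the next enzyme of the same cascade, was all but missing from microglia-like cells, with 4, 3 and 3 UMIs in 2611708, 4293292 and 4915981 total UMIs (1.53, 0.699 and 0.61 CPM). It was highest in T cell-like cells at 131, 46.8 and 48.8 CPM, followed without overlap by neutrophil-like cells at 21.0, 25.6 and 24.0 CPM. A UMI of each enzyme in the same cell was found in 8 of 2796 microglia-like, 26 of 526 T cell-like, 12 of 258 neutrophil-like and 0 of 568 monocyte/macrophage-like cells. In microglia-like cells 1880 held *Entpd1* and 9 held *Nt5e*.

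The adenosine receptors were highest in different classes. *Adora3* was measured at 93.0, 121 and 98.0 CPM in microglia-like cells and averaged at most 6.65 CPM elsewhere among the 6 classes. *Adora2a*, the receptor through which adenosine restrains lymphocytes, was at 53.5, 19.6 and 30.7 CPM in T cell-like and 8.05, 13.4 and 24.0 CPM in monocyte/macrophage-like cells, 2 classes that overlapped, while microglia-like cells held 1, 1 and 5 UMIs (0.383, 0.233 and 1.02 CPM).

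**Figure D1:**
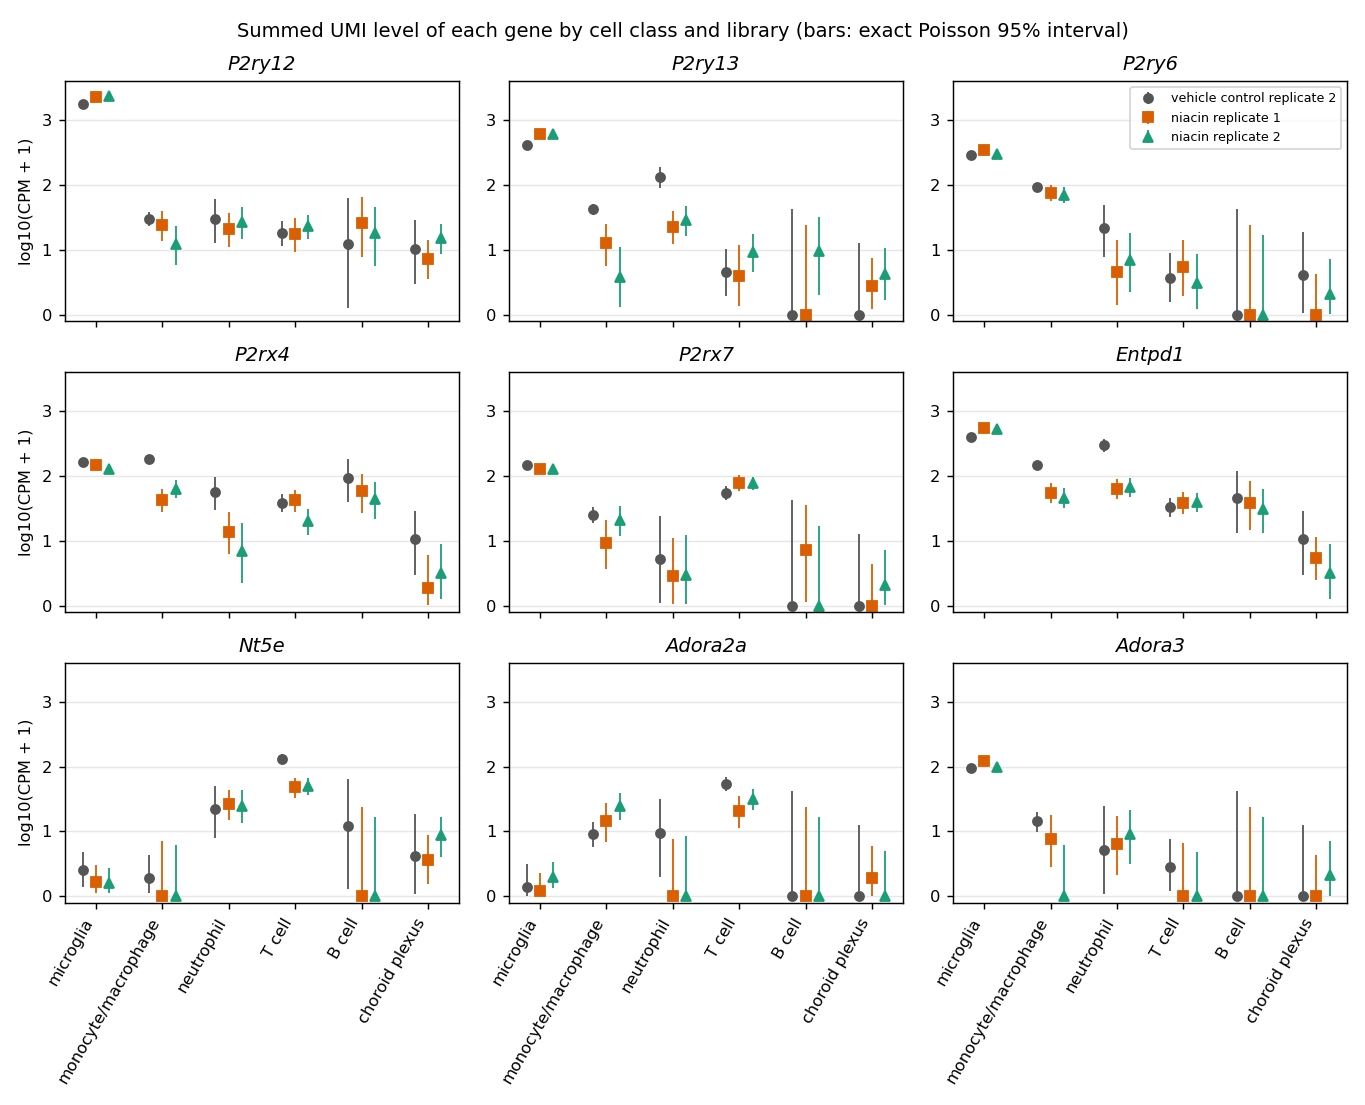
Level of each of the 9 genes, as log10 of CPM plus 1, in the summed cells of 6 classes, with 1 point per library (gray circle, vehicle control replicate 2; orange square, niacin replicate 1; green triangle, niacin replicate 2) and bars for exact Poisson 95% intervals, which cover counting error only. The panels of *P2ry12*, *P2ry13*, *P2ry6*, *P2rx7*, *Entpd1* and *Adora3* peak in microglia-like cells with no overlap with the next class, *P2rx4* overlaps between microglia-like and monocyte/macrophage-like cells, and *Nt5e* and *Adora2a* have their highest mean in T cell-like cells.

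The first comparison asked which of the genes set microglia-like cells apart from the monocyte/macrophage-like cells of the same pools. The ADP and UDP receptors, *P2rx7*, *Entpd1* and *Adora3* were higher in microglia-like cells and *Adora2a* was lower, each without overlap between the 3 libraries of either class. edgeR's quasi-likelihood test on summed counts, with library as a block and Benjamini-Hochberg adjustment over 10320 genes, called 7 of the 8 members tested, where 44.9% of all genes tested were called. *Nt5e* did not pass the filter on low counts in this comparison. The log2 fold changes with standard errors were 6.36 ± 0.40 for *P2ry12* (adjusted p = 0.000241), 4.65 ± 0.71 for *P2ry13* (0.00284) and 1.72 ± 0.21 for *P2ry6* (0.00139). *P2rx7* followed at 2.64 ± 0.28 (0.000825), *Entpd1* at 2.46 ± 0.47 (0.00674), *Adora3* at 3.42 ± 0.54 (0.00319) and *Adora2a* at -4.92 ± 0.54 (0.000945), the last from 7 UMIs in all microglia-like cells. *P2rx4* differed by 0.56 ± 0.39 and did not pass (adjusted p = 0.276). Its call turned on the vehicle control library: without it the difference was 1.18 (adjusted p = 2.04e-10). Leaving out that library also moved *P2ry13* to 6.24, *Adora3* to 4.93 and *Entpd1* to 3.23, with no call lost. Without niacin replicate 2 these genes were at 3.99, 2.96 and 2.04, also with no call lost. The median log2 fold change was 2.55 over the 8 members and 0.10 over all genes tested. The tests compare classes over 3 libraries, which are pools, and measure only the spread between these.

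**Figure D2:**
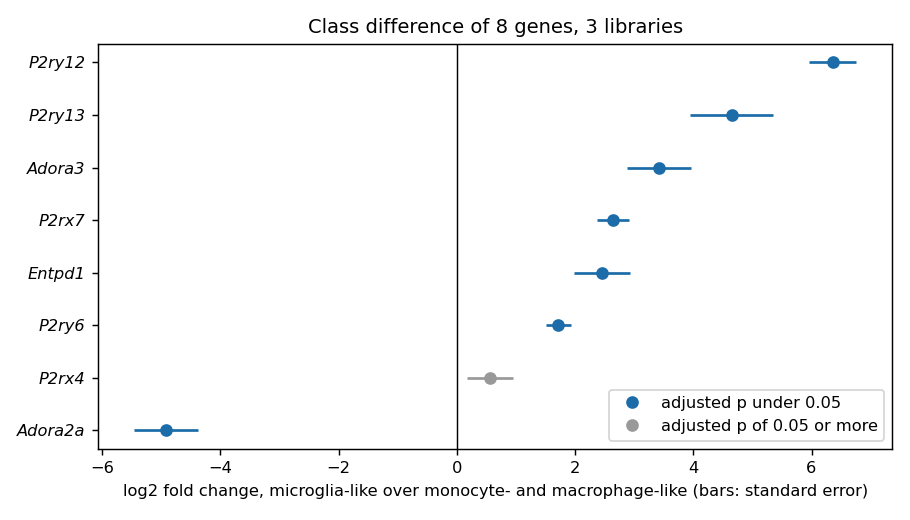
Log2 fold change of microglia-like over monocyte/macrophage-like cells for the 8 genes tested, from edgeR over 3 libraries, with bars for the standard error; blue points passed an adjusted p of 0.05 and the gray point (*P2rx4*) did not. *P2ry12* lies farthest to the right at 6.36 and *Adora2a* alone lies to the left, at -4.92.

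The monocyte/macrophage-like class was itself a different mixture in each group. Cells whose leading list was nonclassical monocyte gave 5.13% of its UMIs in the vehicle control library and 66.8% and 53.4% in the niacin libraries, while monocyte-list cells gave 56.8%, 21.2% and 38.1% and monocyte-derived macrophage-list cells 22.4%, 4.45% and 3.26%. *Adora2a* stood at 18.5, 20.03 and 31.8 CPM in the nonclassical list and at 6.67, 0 and 11.1 CPM in the monocyte list, from 12 UMIs or fewer in each library. *P2rx4* stood at 64.6, 25.0 and 34.5 CPM in the nonclassical and 181, 103 and 108 CPM in the monocyte list, and *Entpd1* at 27.7, 32.5 and 42.4 CPM against 152, 94.8 and 33.4 CPM. *P2rx4* was thus higher in the monocyte than in the nonclassical list in every library, and *Entpd1* in the first 2 libraries named. *P2ry6* was similar in both, at 102, 72.6 and 74.2 CPM against 96.7, 63.2 and 66.9 CPM. In the vehicle control library, cells tied between lists (12.7% of UMIs) held *P2rx4* at 272 CPM and *Entpd1* at 276 CPM. The monocyte-derived macrophage-list cells of that library held 180 and 99.6 CPM. In the niacin libraries the tied cells and that list held 5 UMIs or fewer of either gene.

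Each class was next compared with the unweighted mean of the other 5 in 1 joint edgeR fit of 9838 genes, in which all 9 members were tested. For every class but microglia-like cells, that mean includes microglia-like cells, at 2124 CPM of *P2ry12*. A call of *P2ry12* as lower is therefore not a call against the remaining classes alone. Microglia-like cells had 7 members higher and 1 lower, where 33.5% of all genes tested were called higher and 17.4% lower. The 7 were *P2ry12*, *P2ry13*, *P2ry6*, *P2rx4*, *P2rx7*, *Entpd1* and *Adora3*, and *Nt5e* was the lower one (edgeR adjusted p = 0.00357). For *Adora2a* edgeR gave no usable estimate (standard error 318), and B cell-like cells held 0 UMIs of it. DESeq2 called *Adora2a* lower in microglia-like cells (adjusted p = 0.000674). For *P2ry12*, *Entpd1* and *P2rx4* no class was at 0 in any library. Their log2 fold changes were 6.52 ± 0.20, 3.51 ± 0.26 and 2.28 ± 0.25 (edgeR adjusted p = 4.94e-16, 2.39e-10 and 1.54e-07). All 7 were called under each of the 10 alternative settings run.

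T cell-like cells had 3 members higher (*Nt5e*, *Adora2a* and *P2rx7*) and 3 lower (*P2ry12*, *P2ry13* and *Entpd1*), where 19.8% of genes were called higher and 13.2% lower. For *P2ry6* and *Adora3* edgeR gave no usable estimate here (standard errors 63.4 and 494), and B cell-like cells held 0 UMIs of either gene. DESeq2 called both lower in T cell-like cells (adjusted p = 0.00169 and 0.0258). *Nt5e* differed by 4.41 ± 0.33 on the log2 scale (edgeR adjusted p = 7.37e-10), although monocyte/macrophage-like and B cell-like cells were at 0 in some libraries. *Entpd1* barely passed (adjusted p = 0.046) and lost its call without any 1 of the 3 libraries and without the replicate block (adjusted p = 0.0721) or shared barcodes (adjusted p = 0.123), being called in 2 of 10 alternative settings, and *P2ry13* without niacin replicate 2 or without shared barcodes. *P2ry13* was called in 7 of 10 alternative settings. Neutrophil-like cells had *P2ry13*, *Nt5e* and *Entpd1* higher and none lower, where 20.2% and 15.1% of genes were called, and these 3 calls held under every setting in which the gene was tested. Their log2 fold changes were 2.23 ± 0.53, 3.45 ± 0.49 and 1.75 ± 0.32 (edgeR adjusted p = 0.00246, 7.86e-06 and 0.00017). Other classes were at 0 in some libraries for *P2ry13* and *Nt5e*.

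Monocyte- and macrophage-like cells had *P2ry6*, *P2rx4*, *P2rx7* and *Adora2a* higher and *P2ry12* and *Nt5e* lower, where 23.1% of genes were called higher and 7.48% lower. *P2rx4* differed by 1.55 ± 0.29 (edgeR adjusted p = 0.000209). *P2rx7* passed narrowly (adjusted p = 0.0485) and was called in 4 of 10 alternative settings, being lost with DESeq2 (adjusted p = 0.126) and without the vehicle control library or niacin replicate 2. *Adora2a* and *P2ry12* were lost without niacin replicate 2, and *Nt5e* in this class and in microglia-like cells was lost without the vehicle control library or without shared barcodes. *P2ry12* was called in monocyte/macrophage-like cells in 8 of 10 alternative settings. Its mean there (21.2 CPM) was below that of microglia-like (2124 CPM) and neutrophil-like cells (25.2 CPM). It was above that of T cell-like (18.7 CPM), B cell-like (17.8 CPM) and choroid plexus-like cells (10.1 CPM). In B cell-like cells no member was higher and 2 were lower, *P2ry12* and *P2ry6*, where 11% and 7.79% of genes were called. *P2ry6* lost its call there without niacin replicate 2, and *P2ry12* without that library or the vehicle control library. *P2ry6* and *P2ry12* were called there in 8 and 7 of 10 alternative settings. Choroid plexus-like cells, the epithelium that makes cerebrospinal fluid, had no member higher and 5 lower (*P2ry12*, *P2ry13*, *P2rx4*, *P2rx7* and *Entpd1*), where 32.2% and 30.3% of genes were called; *P2rx7* was lost without niacin replicate 1 or without shared barcodes and *P2ry13* without niacin replicate 2. *P2rx7* was called there in 7 of 10 alternative settings. For *P2ry6* and *Adora3* edgeR gave no usable estimate in choroid plexus-like cells (standard errors 1404 and 734). DESeq2 called *P2ry6* lower there (adjusted p = 0.00244). The counts of 0 members lower in neutrophil-like cells and higher in B cell-like and choroid plexus-like cells were also 0 at an unadjusted p under 0.05 and with DESeq2.

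Detection in single cells was compared after thinning each cell to 2000 UMIs, which left out 215, 314 and 624 of the shallower microglia-like cells. A *P2ry12* UMI was then found in 80.8% of the microglia-like cells in the vehicle control library (95% interval 75.9 to 85.1, exact binomial), 94.0% (92.0 to 95.7) of niacin replicate 1 and 93.7% (91.6 to 95.4) of niacin replicate 2. The shares in T cell-like cells, taken as background, were 1.36%, 1.22% and 8.26%, with median depths of 6309 to 7143 UMIs against 6046.5 to 7552 UMIs in microglia-like cells. Unthinned microglia-like cells gave 78.5%, 87.1% and 83.4%, and unthinned T cell-like cells 8%, 6.58% and 11.5%. *Nt5e* was found in 19.7% (13.6 to 27.1), 9.76% (4.31 to 18.3) and 9.09% (4.63 to 15.7) of thinned T cell-like cells. In thinned microglia-like cells it was found in 1 of 302, 0 of 672 and 1 of 669, the 0 allowing a share of cells with a UMI at this depth, not of cells expressing the gene, of up to 0.446%. Intervals cover counting error only.

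Among T cell-like cells, *Nt5e* stood at 107, 44.1 and 49.7 CPM in those with a *Cd8a* or *Cd8b1* UMI and no *Cd4* UMI, and at 157, 47.7 and 50.7 CPM in those with the reverse. *P2rx7* stood at 67.4, 94.1 and 70.0 CPM and 83.7, 58.3 and 83.3 CPM in the same split, and *Adora2a* at 51.5, 17.7 and 22.6 CPM and 54.0, 21.2 and 39.8 CPM. The Cd4 and Cd8 cells thus held each of the 3 genes in every library. Of the 29 cells with a *Foxp3* UMI, the regulatory T cell factor, in the vehicle control library, the summed *Nt5e* level was 220.4 CPM and *Entpd1* 79.6 CPM; the 8 and 6 such cells of the niacin libraries gave 55.4 and 0 CPM of *Nt5e* (3 and 0 UMIs) and no *Entpd1* UMI.

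Smaller classes add to the distribution without entering a test. NK cell-like cells of the vehicle control library (76 cells) held *Adora2a* at 133 CPM, *Entpd1* at 113 CPM and *Nt5e* at 82.0 CPM, while the 8 and 15 such cells of the niacin libraries gave 34.1 and 96.4 CPM, 68.1 and 68.8 CPM, and 0 and 0 CPM. The niacin values rest on 7 UMIs or fewer each. Mast cell or basophil-like cells (5, 29 and 35 cells) held *P2rx4* at 446, 274 and 160.2 CPM, *P2rx7* at 191, 142 and 109.6 CPM and *Adora3*, which augments mast cell degranulation in mice, at 63.7, 75.6 and 67.5 CPM. The vehicle control values of that class rest on 7, 3 and 1 UMIs. In the niacin libraries *Adora2a* was at 94.5 and 59.0 CPM in the same cells. *Adora3* averaged 0.605 CPM or less in T cell-like, B cell-like and choroid plexus-like cells.

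The second question was how the receptors vary among microglia-like cells. Cells thinned to 2000 UMIs were split by a list of activation genes (*Cst7*, *Lpl*, *Axl*, *Spp1*, *Gpnmb*, *Ch25h*, *Cxcl13*, *Ccl3* and *Ccl4*; 9 of 10 listed genes were measured), and 83, 82 and 95 cells with 2 or more of these were compared with 141, 398 and 371 cells with none. *P2ry12* was at 1078, 1701 and 1832 CPM in the activated cells and at 2284, 2362 and 2612 CPM in the others, lower in 3 of 3 libraries with no overlap. It was the 1 member called of 7 tested, at -0.66 ± 0.13 on the log2 scale (edgeR quasi-likelihood test over 4186 genes, adjusted p = 0.00191), where 2.03% of genes were called. The call was lost with DESeq2 (-0.65, adjusted p = 0.0628) and without the replicate block (-0.63, adjusted p = 0.675), and it held in the other 9 of 11 settings. Over the 11 settings the *P2ry12* difference ranged from -2.27 to -0.31 on the log2 scale. *P2ry13* was at 295, 567 and 616 CPM against 496, 696 and 649.6 CPM (-0.31 ± 0.15, adjusted p = 0.384). *P2ry6*, *P2rx4*, *P2rx7*, *Entpd1* and *Adora3* differed by -0.13 to 0.36 on the log2 scale (edgeR adjusted p = 0.48 to 0.912).

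With a stricter split, *P2ry12* fell further. Cells with 3 or more activation genes (21, 9 and 17 cells) had 571, 222 and 676 CPM, cells with exactly 2 had 1250.0, 1884 and 2083 CPM, and cells with 1 had 2006, 2227 and 2470.4 CPM. Against cells with none, 3 or more gave -2.27 for *P2ry12* (edgeR adjusted p = 1.48e-08) and -1.59 for *P2ry13* (adjusted p = 0.00203), which was at 119, 167 and 324 CPM there. The cells with 3 or more held 24, 4 and 23 *P2ry12* UMIs and 5, 3 and 11 *P2ry13* UMIs. *P2ry6* in the same cells was at 333, 611 and 206 CPM, from 14, 11 and 7 UMIs.

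**Figure D3:**
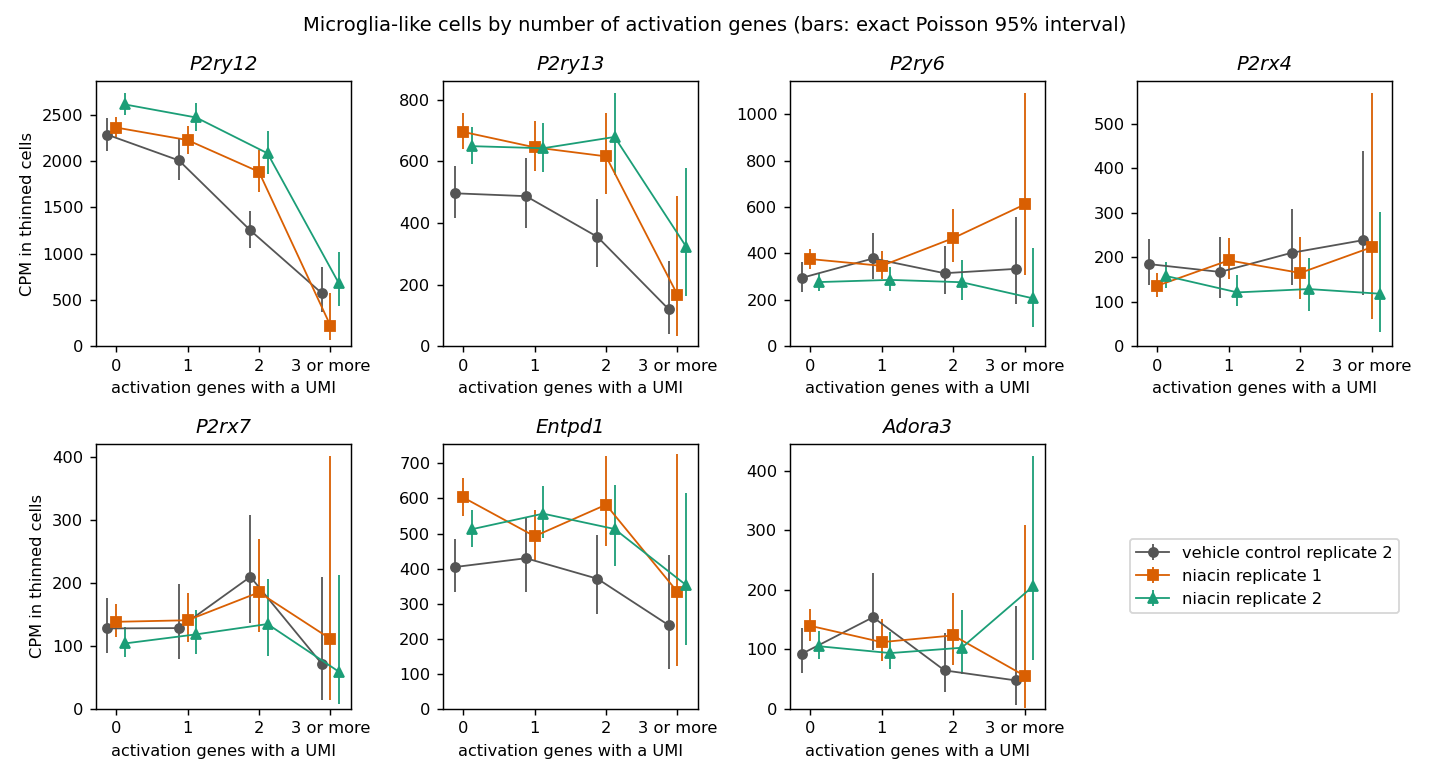
CPM of 7 genes in thinned microglia-like cells grouped by how many activation genes held a UMI (0, 1, 2, or 3 or more), with 1 line per library and bars for exact Poisson 95% intervals. *P2ry12* goes down with each step in every library, from 2284 to 2612 CPM at 0 to between 222 and 676 CPM at 3 or more; *P2ry6* and *P2rx4* show no common direction.

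Level also moved with depth. In microglia-like cells under 2000 UMIs *P2ry12* was at 1260.4, 1320 and 1547 CPM, against 1820, 2340 and 2453 CPM in deeper cells, and *Adora3* was at 48.0, 63.1 and 67.8 CPM against 97.4, 126 and 102 CPM. *Entpd1* went the other way in each library, at 419, 683 and 613 CPM against 387, 527 and 511 CPM.

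The third comparison set the niacin libraries beside the vehicle control library, within each class, as values without a test. In microglia-like cells none of the 7 members with at least 30 UMIs was past 1.5-fold in both niacin libraries, where 20.5% of 10971 genes were. *P2ry13* was nearest, with log2 ratios of 0.56 (exact 95% interval 0.46 to 0.66) and 0.54 (0.44 to 0.64). *Entpd1* had 0.47 (0.36 to 0.57) and 0.42 (0.32 to 0.53), and *P2ry12* had 0.35 (0.30 to 0.40) and 0.40 (0.35 to 0.45). *P2rx7* had -0.21 (-0.40 to -0.02) and -0.23 (-0.42 to -0.04). *P2ry13*, *Entpd1* and *P2ry12* were thus higher and *P2rx7* lower in both niacin libraries beyond counting error. The direction of *P2rx7* turned with depth, at 148, 186 and 193 CPM in cells under 2000 UMIs and 147, 122 and 116 CPM in deeper cells. The variation between pools of 1 group could not be measured for the vehicle control, which had 1 library. Without shared barcodes the mean ratio of *P2ry12* was 0.11 instead of 0.38, and that of *P2ry13* 0.43 instead of 0.55. With TMM-scaled library sizes *P2ry13* passed 1.5-fold, at a mean of 0.64.

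Other values moved with these ratios, and their part in them was not tested. Activated cells made up 27.5% (22.5 to 32.9) of thinned microglia-like cells in the vehicle control library and 12.2% (9.82 to 14.9) and 14.2% (11.6 to 17.1) in the niacin libraries. The ratios given before came from all microglia-like cells without thinning. In cells with none of the activation genes, thinned to 2000 UMIs, the *P2ry12* ratios were 0.05 (-0.08 to 0.18) and 0.19 (0.06 to 0.32). Those of *P2ry13* were 0.49 (0.22 to 0.77) and 0.39 (0.11 to 0.67), and those of *Entpd1* 0.58 (0.28 to 0.88) and 0.34 (0.04 to 0.66). *P2rx7* in those cells had 0.11 (-0.44 to 0.70) and -0.30 (-0.89 to 0.31), on both sides of no change. The summed level of the 12 microglia markers in microglia-like cells was 22589, 30782 and 29844 CPM, and that of the 8 monocyte markers was 535, 47.1 and 63.7 CPM, with none, none and 1 of the 8 at 0. Choroid plexus markers summed to 86.5, 1264 and 646 CPM and erythroid markers to 493.5, 2404 and 3390.0 CPM in the same cells, and the mitochondrial share of UMIs was 3.73%, 2.12% and 2.62%. The groups also differ in what the pools held, and treatment and pool cannot be told apart.

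In monocyte/macrophage-like cells 5 of 8 members were past 1.5-fold in both niacin libraries, where 27.7% of 7999 genes were. Lower were *P2ry13* (-1.81 and -3.86, from 87, 7 and 2 UMIs), *P2rx4* (-2.13 and -1.55), *Entpd1* (-1.46 and -1.70) and *Adora3*. The last went from 13.3 CPM to 6.69 CPM and 0, the 0 allowing up to 4.24 CPM. *Adora2a* was higher (0.73 and 1.58), though its interval in niacin replicate 1 (-0.69 to 2.02) covered no change, as did that of *Adora3* there (-2.96 to 0.53, from 4 UMIs). Without shared barcodes *P2ry13*, *Adora2a* and *Adora3* had under 30 UMIs, and *P2rx4* (-2.72) and *Entpd1* (-2.43) stayed past 1.5-fold, which *P2ry12* then also passed (-1.21). The shares of the nonclassical, monocyte and monocyte-derived macrophage lists given above moved with all 5, as did the summed monocyte-derived macrophage markers (3107, 1464 and 1338 CPM, none of 8 at 0), and their part was not tested; within the monocyte list *P2ry13* was at 45.0, 47.4 and 3.72 CPM and within the nonclassical list at 18.5, 0 and 0 CPM. In the whole class dendritic cell markers summed to 730, 385 and 226 CPM and microglia markers to 1055, 1637 and 1730 CPM. Choroid plexus markers summed to 42.6, 314 and 173 CPM and erythroid markers to 20.8, 769 and 1163 CPM. The mitochondrial share of UMIs was 4.07%, 3.15% and 3.24%, and the part of these values was not tested. *P2ry12*, *P2ry6* and *P2rx7* had ratios of -0.30 and -1.35, -0.30 and -0.42, and -1.53 and -0.29.

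In neutrophil-like cells 2 of 4 members were past 1.5-fold, where 45.5% of 4041 genes were and the median log2 ratio of all genes was -0.57. *P2ry13* had -2.57 and -2.22 and *Entpd1* -2.25 and -2.16; scaled by TMM their mean ratios were -1.68 and -1.48. The summed neutrophil markers took 193663, 340234 and 434292 CPM in the 3 libraries. Monocyte-derived macrophage markers summed to 867, 462 and 299 CPM in these cells (4, 3 and 2 of 8 at 0), microglia markers to 518, 208 and 379 CPM (4, 1 and 0 of 12 at 0), dendritic cell markers to 194, 21.9 and 4.01 CPM (5, 5 and 8 of 9 at 0), and monocyte markers to 5173, 8317 and 8816 CPM (1, 2 and 4 of 8 at 0), and their part was not tested. In T cell-like cells 2 of 6 members were past 1.5-fold, where 26.8% of 7697 genes were and the median log2 ratio was -0.21. *Nt5e* had -1.48 (-2.09 to -0.91) and -1.42 (-1.93 to -0.93), and *Adora2a* -1.45 (-2.44 to -0.57) and -0.80 (-1.49 to -0.14). NK cell markers summed to 1133, 290 and 293 CPM in these cells, cells with a *Foxp3* UMI numbered 29, 8 and 6, and the cells of the Cd4 and Cd8 split numbered 67 and 43, 41 and 76, and 48 and 72. *Nt5e* was lower in both niacin libraries within the Cd8 and within the Cd4 cells, as given above, and the part of NK and *Foxp3* cells was not tested. Scaled by TMM, *Nt5e* had a mean ratio of -1.30 and *Adora2a* of -0.98.

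**Figure D4:**
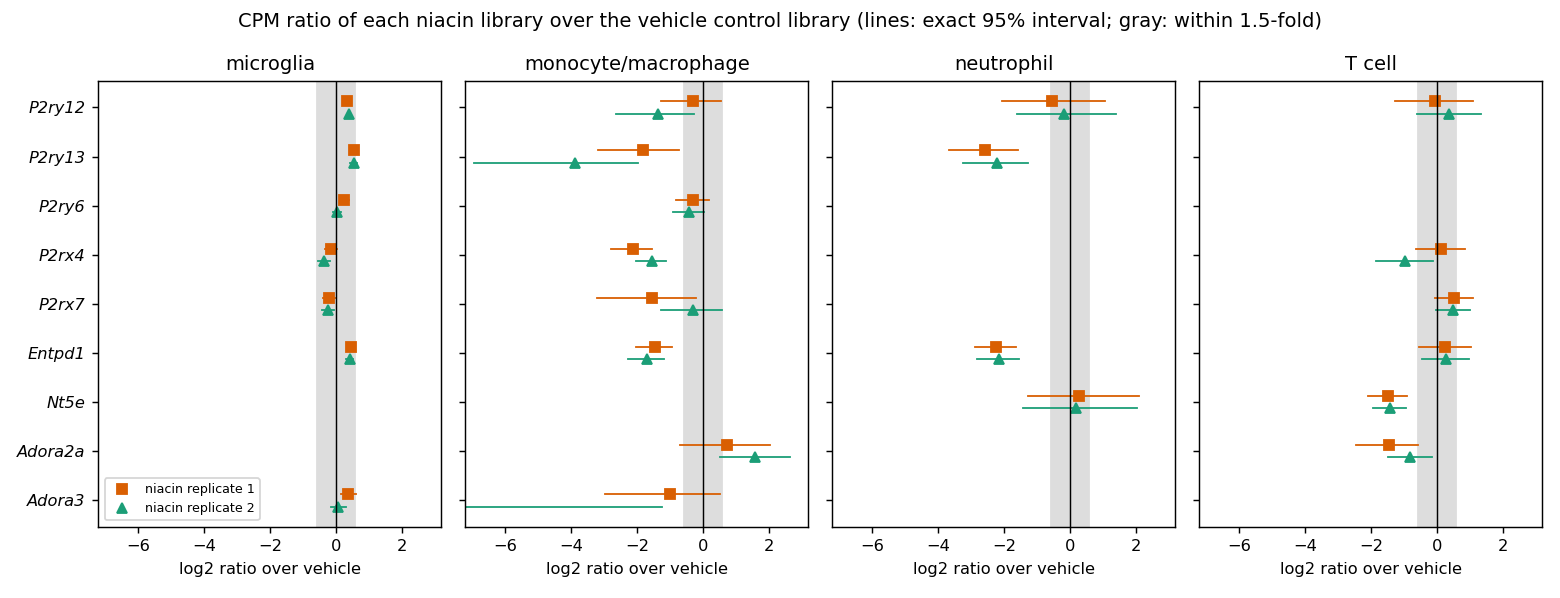
Log2 ratio of CPM in each niacin library (orange square, replicate 1; green triangle, replicate 2) over the vehicle control library in 4 classes, for genes with at least 30 UMIs, with lines for exact 95% intervals and a gray band for ratios within 1.5-fold; the interval of *Adora3* in niacin replicate 2 of the monocyte/macrophage-like panel has no lower end, since no UMI was found. All points of microglia-like cells lie in the band, and *Entpd1* and *P2ry13* lie left of it in the monocyte/macrophage-like and neutrophil-like panels.

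Of 39 other genes of nucleotide and adenosine handling, 20 were tested between microglia-like and monocyte/macrophage-like cells, 4 were higher, 6 lower and 10 not called, where 44.9% of all genes tested were called, with a median log2 fold change of -0.38. The 3 largest rises were *Slc17a9*, the vesicular ATP transporter (2.84 ± 0.60, edgeR adjusted p = 0.00967), *Enpp1*, an ATP-hydrolyzing ectoenzyme (1.94 ± 0.48, 0.0176), and *Slc29a3*, a lysosomal nucleoside transporter (1.41 ± 0.45, 0.0424). The 3 largest falls were *Slc28a2*, a nucleoside transporter at 0.383, 0 and 0.407 CPM against 20.4, 25.1 and 11.3 CPM, *Adora2b*, the low-affinity adenosine receptor at 0.766, 0.932 and 0 CPM against 27.9, 15.1 and 17.0 CPM, and *P2ry1*, an ADP receptor at 0.766, 0 and 0 CPM against 10.4, 5.02 and 5.66 CPM (edgeR adjusted p = 0.00118, 0.00153 and 0.00504). In the joint fit 6 of the 20 were higher and 4 lower in microglia-like cells, 9 and 2 in monocyte/macrophage-like cells, 9 and 3 in T cell-like cells, 6 and 0 in neutrophil-like cells (2 lower at an unadjusted p under 0.05, and 0 by DESeq2 after adjustment), 5 and 1 in B cell-like cells and 6 and 8 in choroid plexus-like cells. Among all genes the shares called higher and lower were 33.5% and 17.4%, 23.1% and 7.48%, 19.8% and 13.2%, 20.2% and 15.1%, 11% and 7.79%, and 32.2% and 30.3%, in the same order of classes. The largest rise in T cell-like and in B cell-like cells was *P2ry10*, listed here by its symbol although it is known as a receptor for lysophosphatidylserine and not for nucleotides (4.30 ± 0.32 and 3.85 ± 0.48, edgeR adjusted p = 6.18e-10 and 4.5e-06), and that in choroid plexus-like cells was *Slc29a4*, at 200, 101 and 78.3 CPM. Only 3 of the 39 were tested between activated and other microglia-like cells, and edgeR and DESeq2 called 0 of them (1 at an unadjusted p under 0.05 with edgeR, 0 with DESeq2).

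Genes with the most similar pattern were sought by Pearson's r of log2(CPM + 10) over the 18 class-by-library sums, which share libraries and are not independent. For *P2ry12* these were *Olfml3*, *Slco2b1* and *Trim47* (r = 0.994, 0.991 and 0.990), for *P2ry13* *Ptgs1*, *Dtx4* and *Gpr84* (0.985, 0.961 and 0.960), and for *P2ry6* *Rrbp1*, *Bmf* and *Csf1r* (0.980, 0.978 and 0.973). *Olfml3* and *Csf1r* are in the list that defined microglia-like cells. The closest gene was *Runx1* for *P2rx4* (0.959), *Slc9a9* for *P2rx7* (0.948), *Cmtm6* for *Entpd1* (0.973) and *Mag* for *Adora3* (0.978). *Mag* is in the oligodendrocyte marker list used to sort cells, and no cell was classed as oligodendrocyte-like. For *Nt5e* it was *Il18r1* (0.935) and for *Adora2a* *Klrd1* (0.925), a receptor of NK cells.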

How the data were processed

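The deposited files hold raw UMI counts per gene and barcode for 3 droplet libraries (10x Chromium 3′ chemistry), made by the authors with Cell Ranger 3.1, which aligns with STAR, on mm10, per the labels' processing notes. Each library pooled several brains; the labels and the methods differ on how many (4 brain tissues per sample, against 5 vehicle control and 10 niacin mice). Cells with at least 200 genes and at most 20% mitochondrial UMIs were kept. A class needed at least 3 distinct markers of 1 of 18 lists, leading the next class by 1 or more; Scrublet called 26 cells (0.470%), a rate too low to rely on, and doublets were kept. For each library and class the counts were added up and tested two-sided with edgeR 4.0.16 (TMM, filterByExpr, quasi-likelihood, library block) in R 4.3.3, with DESeq2 1.42.0 as an alternative; a gene was called at an adjusted p under 0.05. CPM are UMIs per 1000000 UMIs of the summed cells. In niacin ratios, called means past 1.5-fold in both niacin libraries; intervals are exact at 95%, and a count of 0 was bounded by 3 counts. The script was tested on simulated data. Named genes were the 9 members, up to 3 per direction of the largest called change among 39 other pathway genes, the 3 most similar genes of each member, and the activation list. The members and all lists were chosen with earlier results of these data known. Alternatives covered the tool, low-count filter, block, left-out libraries, class rule, depth, doublet scores and shared barcodes. Promoters came from RefSeq (GRCm38.p6), in which 7 of the 9 members matched.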

Additional observations from a re-analysis of the deposited data

Results flagged for a closer look

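*P2ry13* and *Entpd1* were higher in both niacin libraries than in the vehicle control library in microglia-like cells and lower in both in 2 other classes, with each counting interval on 1 side of no change. In neutrophil-like cells the summed monocyte-derived macrophage (867, 462 and 299 CPM), microglia (518, 208 and 379 CPM) and dendritic cell markers (194, 21.9 and 4.01 CPM) were also lower in the niacin libraries, and their part was not tested. Monocyte (5173, 8317 and 8816 CPM) and neutrophil markers (193663, 340234 and 434292 CPM) were higher there in both niacin libraries, and their part was not tested either. The mean log2 ratio of *P2ry13* in microglia-like cells (0.55) exceeded that in monocyte/macrophage-like cells (-2.84) by 3.39 and that in neutrophil-like cells (-2.40) by 2.94. The -2.84 averages -1.81 and -3.86 and rests on 87, 7 and 2 UMIs in the 3 libraries. Without shared barcodes *P2ry13* had under 30 UMIs in that class. The -2.40 rests on 31, 12 and 14 UMIs. For *Entpd1* (0.45 in microglia-like cells, -1.58 and -2.20 in the others) the differences were 2.02 and 2.65. Scaled by TMM, the *Entpd1* ratios were 0.54, -1.64 and -1.48 and those of *P2ry13* 0.64, -2.90 and -1.68, and the median ratio of all genes in neutrophil-like cells was -0.57 before that scaling. Within the nonclassical list, whose share of the monocyte/macrophage-like UMIs went from 5.13% to 66.8% and 53.4%, *Entpd1* was at 27.7, 32.5 and 42.4 CPM and *P2ry13* at 18.5, 0 and 0 CPM. Within the monocyte list *Entpd1* was at 152, 94.8 and 33.4 CPM and *P2ry13* at 45.0, 47.4 and 3.72 CPM. The differences between classes were not tested, since there was 1 vehicle control library.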

How the results depend on the processing

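Between microglia-like and monocyte/macrophage-like cells, 7 members were called in the main analysis and 6 to 8 under the alternatives; *Adora2a* was not tested in thinned cells. All genes called went from 4633 to 2964 without shared barcodes and 2186 in thinned cells, and ranged from 2805 to 5803 with 1 library left out. Each class against the others gave 17 members' calls instead of 30 in thinned cells, and calls over all genes of 9888 there, 15118 without shared barcodes and 14841 to 22112 with 1 library left out, against 22741. For activated microglia-like cells, members called were 0 with DESeq2, 0 without the replicate block and 2 with 3 or more activation genes; all genes called were 26, 17 and 213 there, 139 without a count filter and 40 without shared barcodes, against 85. Without the block, no call changed between microglia-like and monocyte/macrophage-like cells. Members past 1.5-fold with niacin were 9, and 5 in thinned cells, 7 without shared barcodes, 12 with TMM scaling, and 10 and 11 with 1 niacin library left out; 6 were past 2-fold. The *P2ry12* share of microglia-like cells was 74.4% at 1000 UMIs instead of 89.5%. Some settings left fewer cells or genes in a fit, and the causes of these changes were not tested. No member's call changed sign. In microglia-like cells *Nt5e* and *Adora2a* rest on 10 and 7 UMIs in all.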
